A study of Bombyx mori with 4 samples.

Results

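LINEs (long interspersed nuclear elements) are retrotransposons without long terminal repeats. BmN4 is an ovary-derived silkworm (Bombyx mori) cell line. The library used for it lists 18596 gene models and transposons, 14300 of them protein-coding. Of the 18596 sequences, 259 carry the class LINE in their names. They were selected by that class alone, and the clade written after it gave 25 groups, of which 7 hold a single sequence and 1, with 4 sequences, is named Unclassified. RNA crosslinked to BmVasa, the silkworm homologue of the germline RNA helicase Vasa, was sequenced by FAST-iCLIP, in which UV light fixes the protein to RNA, an antibody recovers it and the attached fragments are read. All cells were electroporated with siRNA, which targeted luciferase in the control (Luc KD) or, in the other group (Spn-E KD), Spindle-E, a piRNA-pathway helicase needed for Siwi to be loaded with piRNAs. Of the 4 libraries, the 2 replicates of each group were merged by the authors, so each value below is that of 1 pooled library and no difference has a replicate check. Intervals are 95% intervals that cover counting error only, and a test on reads compares the pooled libraries, not the conditions.

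The RNA of a full-length LINE is both the mRNA of the reverse transcriptase and the template that this enzyme copies at the insertion site. Copies are often cut short at their 5′ end during insertion. The clades differ in the endonuclease that opens the target. R2, R4 and CRE elements carry a restriction-like enzyme, whereas the R1, I, Jockey, CR1, L2 and RTE clades carry an enzyme related to apurinic endonucleases. In animal germ cells, Piwi proteins loaded with piRNAs cut the RNAs of such elements in nuage, the perinuclear granule that Vasa assembles. Reads on BmVasa depend on how much RNA a cell holds as well as on how much of it is bound, and these cannot be told apart here.

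The pooled libraries held 1012269 genome-mapped reads after Luc KD and 1059323 after Spn-E KD. LINEs received 7223 sense reads after Luc KD and 7917 after Spn-E KD, or 0.714% (95% Wilson interval 0.697 to 0.730) and 0.747% (0.731 to 0.764) of genome-mapped reads. The table gives no gene symbols, so neither the level of Spn-E nor markers of the cell line were checked, and gene models derived from LINEs carry no class and are not among the members. Changes are given on the authors' scaling (RPM), in which counts are divided by the genome-mapped reads. On it the 4727 sequences averaging 10 RPM or more, 3544 of them protein-coding, had a median log2 fold change of −0.24. A LINE that kept pace with the typical sequence therefore appears slightly lower. Values relative to that median are added where they alter the reading.

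LINE reads were concentrated on a few long elements. Of the 259 members, 194 had a read in at least 1 library and the other 65 had none. With no read, the level can still be up to 2.96 RPM after Luc KD and 2.83 RPM after Spn-E KD, which is 3 reads per library. For 127 members, both libraries held at most 3 reads. The 10 most abundant LINEs took 49.9% of LINE reads after Luc KD and 53.2% after Spn-E KD, and the 20 most abundant took 73.7% and 75.2%. A mean of 10 RPM was reached by 82 members, the ones that could be compared one by one.

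Clade size said little about bound reads. The R1, I, L2-Daphne and I-Jockey clades hold 62 members and took 65.6% of LINE reads after Luc KD and 62.6% after Spn-E KD. In contrast, RTE and RTE-BovB are the most numerous labels, with 94 members or 36.3% of the LINEs, and took 3.32% and 2.94%. These 2 clades hold mostly short sequences, with median lengths of 369 nt for RTE and 305 nt for RTE-BovB. The medians were 3539.5 nt for R1, 1447.5 nt for I, 2993.5 nt for L2-Daphne and 4365 nt for I-Jockey. After Luc KD, R1, I and L2-Daphne had nearly equal shares, 1226, 1223 and 1223 reads, followed by I-Jockey with 1064. After Spn-E KD, L2-Daphne led with 1628 reads, then came I with 1552, R1 with 1037 and I-Jockey with 742. The plot of shares by clade shows this order changing between the libraries.

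**Figure D1:**
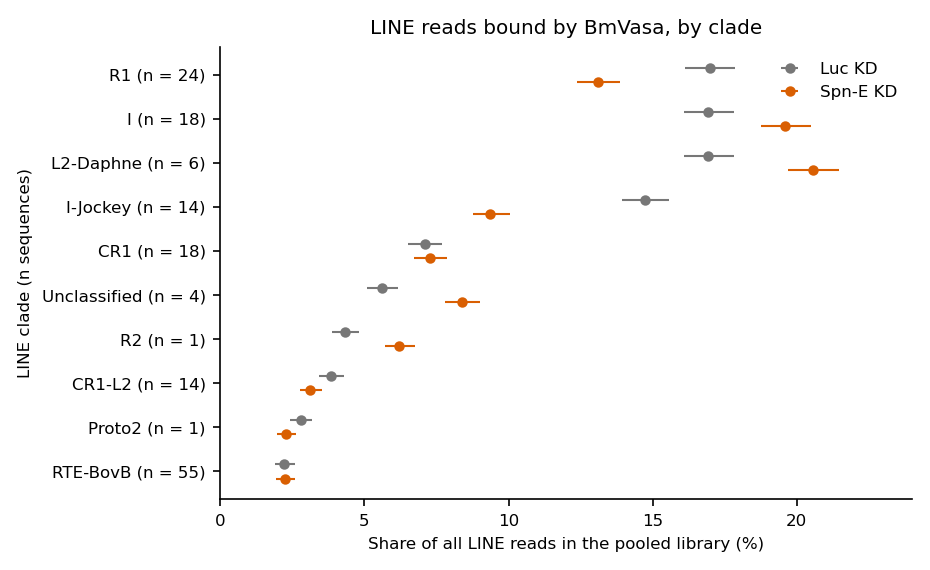
Share of all LINE reads (%, x axis) taken by each clade with at least 200 reads in both libraries together, after Luc KD (grey) and Spn-E KD (orange). Points are the pooled libraries and bars are 95% Wilson intervals; R1 went from 17.0% to 13.1% and L2-Daphne from 16.9% to 20.6%.

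Per length, L2-Daphne was the clade of several members with the highest level. Its 6 sequences had a median of 58.9 RPKM (RPM per kb of sequence) after Luc KD and 73.3 RPKM after Spn-E KD, and all 6 passed 10 RPM. In the I clade all 18 sequences had reads and the medians were 11.3 and 10.6 RPKM. The 24 R1 sequences had medians of 3.12 and 3.78 RPKM, and the 14 I-Jockey sequences 1.95 and 2.16 RPKM, although both clades contain elements above 60 RPKM after Luc KD. The medians of RTE and RTE-BovB were 0 in both libraries, where 26 of 39 and 28 of 55 sequences had no read after Luc KD, and 25 and 33 had none after Spn-E KD. Whether these clades differ in level beyond their spread, or apart from their lengths, was not tested.

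The members without reads were mostly short. The median length was 279 nt for the 65 LINEs with no read and 1672.5 nt for the 194 with reads. Of 92 LINEs under 500 nt, 40 had a read (43.5%), against 72 of 84 from 500 nt up to 2000 nt, 46 of 47 from there up to 4000 nt and 36 of 36 at 4000 nt or more. The last group took 57.5% of LINE reads after Luc KD and 55.5% after Spn-E KD. A short sequence collects fewer reads at the same level per length, and the part of this in the missing reads was not tested. Over all 259 LINEs, Spearman's rho between length and mean RPKM was 0.36, but over the 167 LINEs of at least 500 nt it was 0.068, over the 194 with reads −0.068, and over the 82 with a mean of at least 10 RPM −0.27. These sequences come from the same libraries and related ones can share reads, so the values are descriptions.

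**Figure D2:**
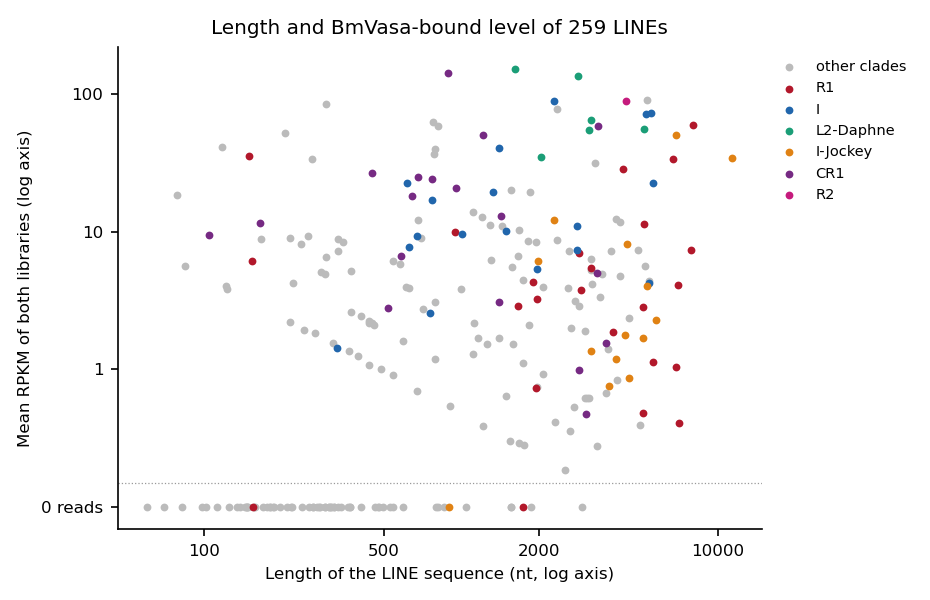
Length (nt, log axis) against mean RPKM of both libraries (log axis) for the 259 LINEs, coloured by clade, with the 65 sequences without reads on the bottom line. Most sequences without reads are short and belong to other clades than the 6 named, and the 6 L2-Daphne sequences all lie at 34.6 RPKM or more, among members of other clades.

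The longest LINEs were not all bound at a high level. R1-5_BM (5102 nt) had 5 reads after Luc KD and 0 after Spn-E KD, BmTE_RM6-225 of the R1 clade (7056 nt) had 2 and 4, and BmTE_RM1-28 of I-Jockey (4517 nt) had 6 and 2. Some short ones reached high levels per length. BmTE_RM1-601 of CR1-L2, only 299 nt long, was at 82.6 RPKM after Luc KD and 85.2 RPKM after Spn-E KD, from 25 and 27 reads. These 4 were chosen after their values were seen. The source of the name also differed with length. The 56 members with element names had a median length of 3301.5 nt and 54 had reads, and the 203 members known only by an identifier starting BmTE_RM had a median of 642 nt and 140 had reads. The former took 60.4% of LINE reads after Luc KD and 64.5% after Spn-E KD.

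Beside the LTR, DNA, SINE and unclassified transposons, LINEs had the lowest share of sequences with reads, 74.9%, where 95.2% of 146 LTR retrotransposons and 96.7% of 122 DNA transposons had them. The median level after Luc KD was 2.41 RPKM for LINEs, 13.5 RPKM for LTR retrotransposons and 21.8 RPKM for DNA transposons. Among sequences of at least 10 RPM the medians were closer, at 12.9, 16.5 and 32.5 RPKM. Under 500 nt, reads were found on 43.5% of LINEs, on 81.8% of 22 LTR retrotransposons and on 74.7% of 859 unclassified transposons. The share at that length was lower, 35.5%, for 110 gene models annotated as transposons. At 4000 nt or more, all LINEs and all LTR retrotransposons had reads. The median length was 994 nt for LINEs and 3887.5 nt for LTR retrotransposons. These classes were not tested against each other.

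Between the libraries, LINEs as a whole hardly moved, whereas single elements moved in both directions. The log2 ratio of summed LINE RPM, Spn-E KD over Luc KD, was 0.067 (95% Clopper-Pearson interval 0.021 to 0.11). The median log2 fold change of the 82 LINEs with at least 10 RPM was 0.045, computed on RPM + 1, with quartiles of −0.38 and 0.36. It lay 0.28 above the median of all 4727 sequences, most of which are protein-coding (median −0.30). The medians were 0.088 for LTR retrotransposons, 0.25 for DNA transposons, 0.0075 for SINEs and −0.062 for unclassified transposons. Gene models annotated as transposons had a median of 0.021. Of the 82, 42 were above 0 and 40 below, while 34.5% of all tested sequences were above 0. Across the 82, Pearson's r of log2(RPM + 1) between the libraries was 0.929 and Spearman's rho 0.848, a description over sequences that are not replicates.

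A two-sided exact binomial test, with p-values adjusted by Benjamini-Hochberg over the 4727 sequences, called 20 LINEs, 10 higher and 10 lower after Spn-E KD. That is 12.2% of the 82 tested LINEs in each direction, and over all tested sequences 3.74% were called higher and 8.23% lower. Protein-coding sequences, most of those tested, had 1.13% and 7.31%. The shares were 18.3% and 16.5% for LTR, 23.3% and 5.56% for DNA, 7.14% and 0% for SINE and 4.53% and 3.02% for unclassified transposons. Gene models annotated as transposons had 11.8% and 14.4%. Such shares were thus not particular to LINEs. With changes read on a fold of 2, 3 LINEs (3.66%) were past it upward and 4 (4.88%) downward, against 3.13% and 9.54% of all tested sequences. These 7 had at most 42 reads in either library. The split of the calls depends on the scaling. The 4 other scalings tried subtract log2 shifts from −0.17 to −0.30 and so raise every fold change. This favours higher calls and weakens lower ones, so staying called says little for the higher ones. All 10 higher calls stayed under each, and of the 10 lower calls only those of Pakurin and BmTE_RM3-31 stayed under all 4. When edgeR's exact test was given an assumed biological variation (coefficient 0.1), 4 higher calls (Kagayaki, Takuya, BmTE_RM1-576 and BmTE_RM6-2356) and 1 lower call (Pakurin) were left. Over all 4727 tested sequences, 74 were then called higher and 117 lower. With 0.2 there were 0 LINEs, beside 3 higher and 2 lower LINEs at an unadjusted p under 0.05. Over all tested sequences, 0.2 gave 0 higher and 8 lower calls.

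**Figure D3:**
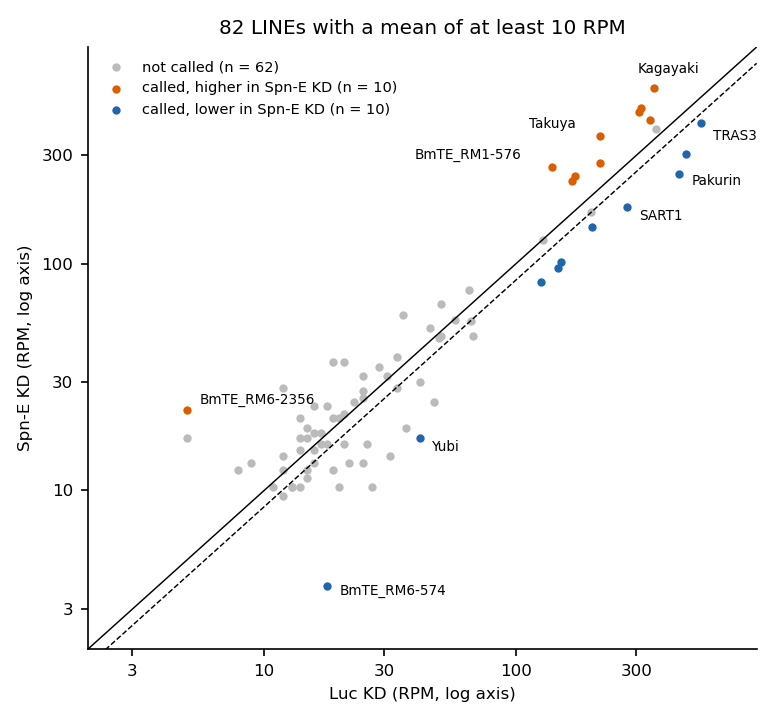
RPM after Luc KD (x, log axis) against RPM after Spn-E KD (y, log axis) for the 82 LINEs with a mean of at least 10 RPM, with the 10 called higher in orange and the 10 called lower in blue by the exact binomial test. The solid line marks equal RPM and the dashed line the median change of all 4727 tested sequences; most called LINEs lie above 100 RPM.

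R2Bm, which inserts into the 28S rRNA genes and is 4372 nt long, rose from 312 reads (70.5 RPKM) after Luc KD to 492 reads (106 RPKM) after Spn-E KD, with a log2 fold change of 0.59 (95% interval of the ratio 0.38 to 0.80). It is the only sequence labelled R2. R1Bm, which inserts into the same genes near the R2 site, had 51 and 70 reads, with a log2 fold change of 0.38, and was not called.

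TRAS3, a telomeric element of the R1 clade and with 8005 nt the LINE with most reads after Luc KD, fell from 547 reads (67.5 RPKM) to 441 (52.0 RPKM), with a log2 fold change of −0.38 (interval −0.56 to −0.19). SART1, a telomeric element of 6684 nt, fell from 278 reads (41.1 RPKM) to 188 (26.6 RPKM), with a log2 fold change of −0.63 (interval −0.90 to −0.36). TRAS1 had 68 reads (8.56 RPKM) after Luc KD and 51 (6.13 RPKM) after Spn-E KD, with a log2 fold change of −0.47, and was not called. The call of TRAS3 was lost under all 4 other scalings and that of SART1 under 2 of them. Relative to the median of all tested sequences the changes were −0.14 for TRAS3, −0.39 for SART1 and −0.23 for TRAS1.

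Within the R1 clade the names divided the reads. The 10 sequences named TRAS or SART went from 929 to 703 reads, a log2 ratio of −0.47 (interval −0.61 to −0.32). The other 14 R1 sequences went from 297 to 334, a log2 ratio of 0.10 (−0.13 to 0.33). One of these, BmTE_RM5-132, was called lower, from 148 reads to 101, and without it the other R1 sequences went from 149 to 233 reads, a log2 ratio of 0.58 (0.28 to 0.89). Low members with the same direction were R1-3_BM, with 12 reads after Luc KD and 30 after Spn-E KD, and R1-1_BM, with 5 and 18. Both were past a fold of 2 and neither was called here. R1-3_BM was called under all 4 other scalings and R1-1_BM under most of them. BmTE_RM6-1364 lay just under 10 RPM with 2 and 18 reads, and its log2 ratio had limits of 1.04 and 6.26. Taguchi, also under 10 RPM, had 2 and 13 reads, with limits of 0.49 and 5.83. Low members with fewer reads after Spn-E KD were R1-5_BM, with 5 reads after Luc KD and 0 after Spn-E KD, HOPEBm2, with 8 and 7, and BmTE_RM4-315, with 6 and 4. The log2 ratio intervals of R1-5_BM, HOPEBm2 and BmTE_RM4-315 included 0. The division by name and the removal of BmTE_RM5-132 were made after the values were seen and carry no test. R1 as a whole had a log2 ratio of −0.31 (−0.43 to −0.19), which is −0.069 relative to the median of all tested sequences, and its interval included 0 when centred on protein-coding sequences or scaled by TMM.

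I-Jockey showed the clearest fall of any large clade, and it came from its most abundant members. Its summed reads went from 1064 to 742, a log2 ratio of −0.59 (interval −0.72 to −0.45), which stayed below 0 under the 3 other scalings tried for clades. Pakurin (6835 nt) fell from 447 reads (64.6 RPKM) to 262 (36.2 RPKM), with a log2 fold change of −0.83 (interval −1.06 to −0.61). BmTE_RM3-31, at 11358 nt the longest LINE of the library, fell from 479 reads (41.7 RPKM) to 323 (26.8 RPKM), with a log2 fold change of −0.63 (interval −0.84 to −0.43). The 2 together held most of the clade's reads in both libraries. L1Bm went the other way with 19 and 39 reads, with a log2 fold change of 0.94, and was called only under the 4 other scalings. The 16 sequences labelled Jockey alone had 52 and 76 reads, with a log2 ratio interval of −0.054 to 1.02. The sum of both labels stayed lower, at −0.51 (−0.65 to −0.38).

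The I clade rose in sum through a few members. Its reads went from 1223 to 1552, a log2 ratio of 0.28 (interval 0.17 to 0.39), and without the most abundant member, I-2_BM, the ratio was 0.13 (0.00072 to 0.26). I-2_BM (5480 nt) rose from 317 reads (57.1 RPKM) to 514 (88.5 RPKM), with a log2 fold change of 0.63 (interval 0.43 to 0.84). BmTE_RM1-576 (2288 nt) rose from 140 reads (60.4 RPKM) to 283 (117 RPKM), with 0.94 (0.65 to 1.25) the largest log2 rise among LINEs of at least 100 RPM. BmTE_RM6-2356 (615 nt) went from 5 reads to 24, with wide limits of the log2 ratio, 0.78 and 3.94. Other abundant members were not called higher. Koshinaka had 363 reads after Luc KD and 415 after Spn-E KD and was not called here, though it was under all 4 other scalings, and Nakasone fell from 152 to 108, with a log2 fold change of −0.55 (interval −0.93 to −0.19), a call lost under all 4 other scalings. Of the 13 I sequences tested, 5 were above 0 and 6 above the median of all tested sequences.

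L2-Daphne rose more evenly. Its 1223 reads after Luc KD became 1628 after Spn-E KD, a log2 ratio of 0.35 (interval 0.24 to 0.46), and without its most abundant member, Benkei, the ratio was 0.35 (0.22 to 0.48). Benkei (2850 nt) rose from 345 reads (120 RPKM) to 455 (151 RPKM), with a log2 fold change of 0.33 (interval 0.13 to 0.54). Takuya (5161 nt) rose from 217 reads (41.5 RPKM) to 386 (70.6 RPKM), with 0.76 (0.52 to 1.01). BmTE_RM5-213 (1626 nt), the LINE with the highest level per length, rose from 218 reads (132 RPKM) to 295 (171 RPKM), with 0.37 (0.11 to 0.63). Sake2_BM rose from 174 reads to 257. The 1 member that fell was BmTE_RM1-217, from 203 reads to 154, with a log2 fold change of −0.46 (interval −0.78 to −0.15), and this call was lost under all 4 other scalings. BmTE_RM5-279 had 66 reads after Luc KD and 81 after Spn-E KD and was not called.

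**Figure D4:**
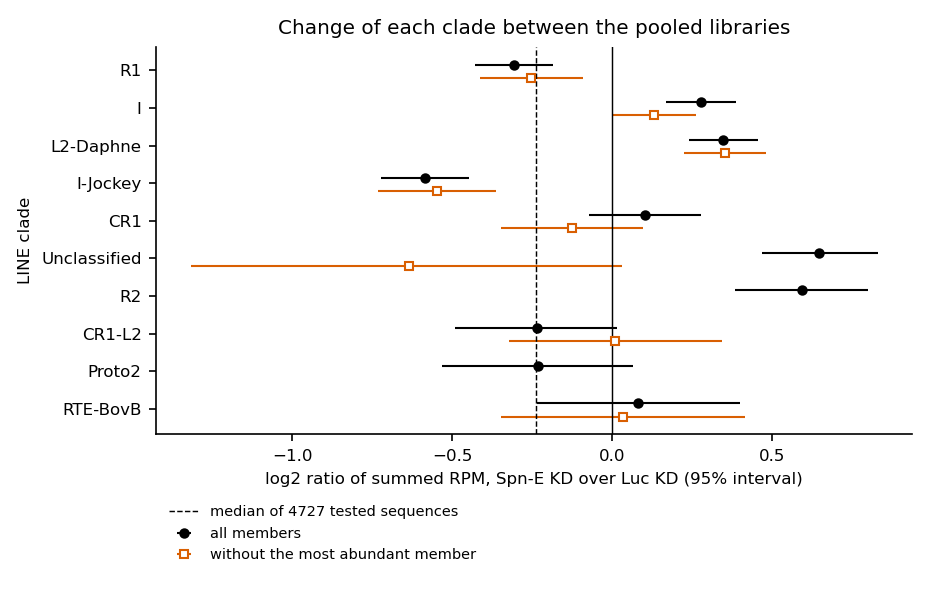
Log2 ratio of summed RPM, Spn-E KD over Luc KD, for the 10 clades with at least 200 reads (black circles) and for the same clades without their most abundant member (orange squares; R2 and Proto2 hold 1 sequence and have none), with 95% Clopper-Pearson intervals. The solid line is no change and the dashed line the median of the 4727 tested sequences; I-Jockey lies left of both, L2-Daphne right of both, and Unclassified changes side without Kagayaki.

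CR1 had 512 reads after Luc KD and 575 after Spn-E KD, a log2 ratio of 0.10 (interval −0.072 to 0.28), and its interval lay above 0 under the 3 other scalings tried for clades. CR1-1_BM (3410 nt) rose from 169 reads (49.0 RPKM) to 246 (68.1 RPKM), with a log2 fold change of 0.47 (interval 0.19 to 0.77), and without it the clade was at −0.13 (−0.35 to 0.097). BmTE_RM1-504 (888 nt), among the highest LINEs per length at 144 RPKM after Luc KD and 142 RPKM after Spn-E KD, had 129 and 134 reads, with a log2 ratio interval of −0.37 to 0.35. CR1-L2 had 277 and 246 reads, a log2 ratio of −0.24 (−0.49 to 0.016), which is 0.0016 relative to the median of all tested sequences. Its most abundant member, BmTE_RM6-1965, fell from 127 reads to 88, with a log2 fold change of −0.59, and without it the clade was at 0.0094 (−0.32 to 0.34). That call was lost under all 4 other scalings. BmTE_RM6-3153 of CR1-Zenon had 16 and 14 reads, and Kimutaku of L2-Kiri 34 and 41.

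The 4 LINEs without a clade were dominated by Kagayaki (5276 nt), which took 87.9% of their reads after Luc KD and 95.03% after Spn-E KD. It rose from 356 reads (66.7 RPKM) to 631 (113 RPKM), with a log2 fold change of 0.76 (interval 0.57 to 0.95), and was the LINE with most reads after Spn-E KD. Yubi, of nearly the same length at 5210 nt, fell from 42 reads to 18, with a log2 fold change of −1.24 (interval −2.17 to −0.46), a call lost under all 4 other scalings. The 3 sequences other than Kagayaki, Yubi included, had 49 and 33 reads.

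RTE clades gave few reads, and only 3 RTE and 4 RTE-BovB sequences could be tested, of which 1 was called. RTE-BovB had 160 reads after Luc KD and 177 after Spn-E KD over its 55 sequences, a log2 ratio of 0.080 (interval −0.24 to 0.40). Its most abundant member, BmTE_RM1-220 (777 nt), had 46 and 55 reads and was at 58.5 and 66.8 RPKM. RTE had 80 and 56 reads over 39 sequences, a log2 ratio of −0.58 (−1.10 to −0.069), or −0.34 relative to the median of all tested sequences. BmTE_RM6-574, a sequence of 207 nt, fell from 18 reads (85.9 RPKM) to 4 (18.2 RPKM), with a log2 ratio interval of −4.26 to −0.63. Its call was lost under most of the 4 other scalings. The fall of BmTE_RM6-574 is part of that of the RTE clade, and the clade's ratio without it was not computed. RTE-2_BM, the most abundant RTE member at 3238 nt, had 15 and 13 reads. BmTE_RM6-1880, labelled RTE-RTE, had 48 and 26 reads, with an interval from −1.70 to −0.23, and was not called. BmTE_RM6-89 of Proto2, a clade of 1 sequence, had 201 and 179 reads and a level of 84.5 and 71.9 RPKM, with an interval from −0.53 to 0.065. Relative to the median of all tested sequences, the log2 ratio of Proto2 was 0.0056. Proto2-1_BM of RTE-Proto2 had 16 reads in each library.

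The clades under 200 reads, 15 in number with 104 members, held 620 reads after Luc KD and 625 after Spn-E KD. Cre-1_BM, of a clade with a restriction-like endonuclease, had 37 and 20 reads, a log2 ratio interval of −1.82 to −0.13, and Cre-2_BM had 22 and 14. Dong, under R2-R4, had 50 in each library, and Dong-2_BM, under Dong-R4, had 51 in each. BmTE_RM5-1758, 815 nt long and labelled Penelope, a group of elements with another type of endonuclease, had 36 and 63 reads. Its interval ran from 0.13 to 1.37, and it was called only under the 4 other scalings. BmTE_RM6-2596 of I-Nimb had 23 and 26 reads, BmTE_RM6-2052 of I-R1 20 and 22, BmTE_RM5-173 of Jockey 16 and 25 and Vingi-1_BM of I-Vingi 15 and 20. The intervals of these last 4 spanned 0. The only I-LOA sequence, BmTE_RM5-248, had 1 read after Luc KD and 0 after Spn-E KD, and the only R2-Hero sequence had none.

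Shares of LINE reads compare the clades with each other and do not move with the scaling of the libraries. In points of LINE reads from Luc KD to Spn-E KD, with 95% Newcombe intervals, L2-Daphne rose by 3.63 (2.39 to 4.87), Unclassified by 2.78 (1.97 to 3.59), I by 2.67 (1.44 to 3.90) and R2 by 1.89 (1.18 to 2.61). I-Jockey fell by 5.36 points (−6.40 to −4.32) and R1 fell by 3.88 points (−5.02 to −2.74). CR1-L2 fell by 0.728 points (−1.32 to −0.145) and Proto2 fell by 0.522 points (−1.03 to −0.0224). CR1 and RTE-BovB had intervals that included 0. These intervals were not adjusted for the 10 clades compared. R2 is R2Bm alone, and the other Unclassified sequences went from 49 to 33 reads without Kagayaki.

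**Figure D5:**
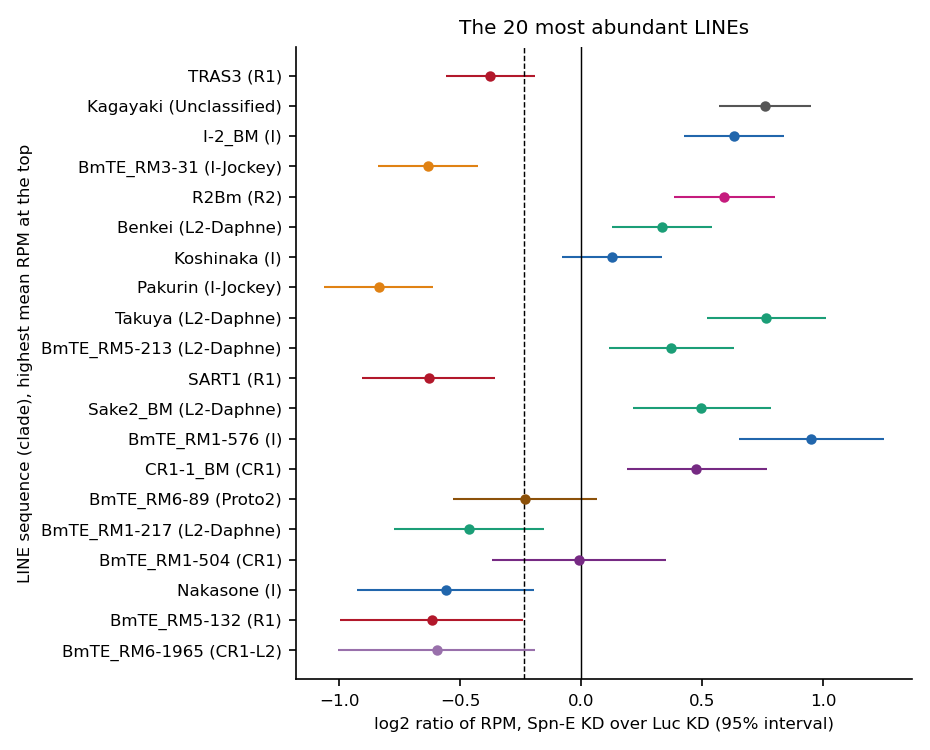
Log2 ratio of RPM, Spn-E KD over Luc KD, for the 20 most abundant LINEs with 95% Clopper-Pearson intervals, coloured by clade, ordered by mean RPM. The solid line is no change and the dashed line is the median of all tested sequences; Pakurin at −0.84 and BmTE_RM1-576 at 0.95 mark the ends of the range, and R1 and I-Jockey elements lie to the left.

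Length and change showed little relation. Spearman's rho between length and log2 fold change over the 82 tested LINEs was −0.075, and median changes on the log2 scale were −0.016 for the 29 LINEs from 500 nt up to 2000 nt, 0.13 for the 24 from there up to 4000 nt and 0.0014 for the 26 at 4000 nt or more.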

How the data were processed

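FAST-iCLIP reads of BmVasa from BmN4 cells (Luc KD and Spn-E KD, 2 libraries each) were processed by the authors with cutadapt 4.0, collapsing of duplicates on a random barcode, STAR 2.7.9a on the SilkBase genome, Bowtie 1.3.1 on a library of gene models and transposons, and SAMtools 1.15. Reads with several matches were placed at random, so related LINEs can share reads. The deposited counts are whole sense reads with the replicates merged. RPM values, also deposited, divide them by the genome-mapped reads of each library, and the RPKM values deposited by the authors are RPM per kb of sequence. No genome positions or sequences of the elements were used here.

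Fold changes were taken after adding 1 to the RPM of both libraries (Spn-E KD relative to Luc KD, on the log2 scale), so that changes of low sequences are understated. A mean RPM of 10 or more was required for a two-sided exact binomial test on counts with Benjamini-Hochberg adjustment at 0.05 over 4727 sequences. Shares have Wilson or Newcombe intervals and ratios exact Clopper-Pearson intervals. Depth limits single values: the median LINE had 2 reads in each library. The test was checked on simulated counts with counting error only, so that check says nothing about variation between replicates. The planned tests per replicate could not be run on pooled counts. Named LINEs were the 10 highest in mean RPM, the 5 highest in mean RPKM, the most abundant of each clade and the 5 largest rises and falls among calls; others were named after their values were seen. The members and lists were chosen with earlier results of these data known. Alternatives covered the minimum RPM, the pseudocount, the scaling, the most abundant members, merged clade names and an edgeR exact test at fixed dispersion. Tests ran in scipy 1.17.1 and statsmodels 0.14.6 under Python 3.11.15 (with pandas 2.3.3, matplotlib 3.10.9 and numpy 2.4.6), and edgeR 4.0.16 and DESeq2 1.42.0 (size factors only) under R 4.3.3.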

Additional observations from a re-analysis of the deposited data

How the results depend on the processing

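No paired analysis was possible because both replicates of a group share 1 merged column, and fits without single replicates, DESeq2's test and the quasi-likelihood test were not run for the same reason. Merging near-equal clade names and dividing R1 by name were chosen after the data were seen.

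The calls were 10 higher and 10 lower. The lower calls were 6 with no minimum RPM, 4 when scaled to gene-library reads without the most abundant sequence, 3 under TMM, 2 under median-of-ratios and 2 (with 16 higher) centred on protein-coding sequences. With an assumed variation of 0.1 there were 4 higher and 1 lower, and with 0.2 there were 0 and 0. Over all tested sequences these counts were 74 and 117 with 0.1, and 0 and 8 with 0.2. At the other minimums and scalings, calls and changes past a fold of 2 were not counted over all sequences. Those LINE counts therefore have no share over all sequences beside them. Past a fold of 2, against 3 and 4, there were 19 and 27 with no minimum, 0 and 0 at 50 RPM, 9 and 1 centred on protein-coding sequences, 5 higher on gene-library reads and 8 higher under TMM and median-of-ratios. The LINE median was 0.34 centred on protein-coding sequences, 0.21 on gene-library reads, 0.27 under TMM and 0.28 under median-of-ratios. Its distance from all tested sequences was 0.056 with no minimum and 0.17 at 50 RPM.

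By clade, the ratio of R1 was −0.0092 centred on protein-coding sequences and −0.065 under TMM. CR1 was 0.40 centred, 0.27 on gene-library reads, 0.34 under TMM and −0.13 without CR1-1_BM. Unclassified reversed to −0.64 without Kagayaki. CR1-L2 was 0.061 centred, 0.0056 under TMM and 0.0094 without its most abundant member, Proto2 was 0.065 and 0.0096, and RTE-BovB was 0.38 and 0.32. In RPKM the share changed by −1.09 points for R1, −1.57 for I-Jockey, −1.88 for CR1, 1.34 for Unclassified, 1.07 for R2 and 0.92 for RTE-BovB, which was at −0.029 without TRAS3. The correlation of length with RPKM was 0.068 at 500 nt or more. The cause was not tested. For the 16 named LINEs that were called, 6 settings refitted the test (4 scalings and 2 assumed variations), and of these 96 refits 52 kept the call, 44 lost it and 0 reversed it. The 4 scalings all shift changes upward, which favours the higher calls. The pseudocount does not enter the test. Among the named LINEs not called, 8 refits gave a call.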
